A study of Mus musculus with 9 samples.

Results

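The genes described here encode antibody constant chains and proteins of the plasma cell, the cell type that secretes antibody. They are Igha, Igkc, Ighm, Jchain, Mzb1, Derl3, Tnfrsf17 and Xbp1, 8 of the 42454 names in each count table, and every one of them was found under its own name. They were chosen from their biology and with their values in Vec against CD43-KO tumours already known, so the difference between the groups in these 8 genes is a description and was not used as a test. The libraries were made from total RNA of whole tumours that MC38, a colon carcinoma line of the mouse, had formed in C57BL/6J hosts by day 21 after inoculation. The labels call the implanted cells Vec-MC38 (genotype WT, 4 tumours) or CD43 KO-MC38 (genotype CD43 KO, 5 tumours), and the groups are named Vec and CD43-KO here. The knockout was in the implanted cells, and both groups of hosts are labelled only by the strain, with no age. The labels do not say whether the knockout line was 1 clone.

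A mature B cell becomes a plasma cell under the transcription factors Blimp-1 (Prdm1), IRF4 and XBP1, and enlarges its endoplasmic reticulum to fold and export antibody. An antibody joins heavy chains, whose constant region sets the class (Ighm for IgM, the Ighg genes for IgG, Igha for IgA), to light chains of kappa (Igkc) or lambda (Iglc) type. The J chain links IgA and IgM into polymers, which epithelia take up through the receptor encoded by Pigr. In bulk tissue a few plasma cells can give many antibody transcripts, and these counts sum over all cells of the tumour.

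Each library held between 44814061 and 72114385 counts. Levels are in CPM, which are counts relative to the library total after TMM scaling, and a pair of values gives the mean ± SD of Vec (n = 4) first and of CD43-KO (n = 5) second. Spn, which encodes CD43, was at 45.8 ± 5.56 and 24.0 ± 10.5 CPM, and the highest CD43-KO tumour (33.6 CPM) lay below the lowest Vec tumour (41.0 CPM). CD43-KO replicate 3 stood apart, with 10 skeletal muscle genes at a summed 1340 CPM against 78.9 to 137.5 CPM in the other tumours and 8 fat genes at 849.2 CPM against 32.92 to 90.51 CPM. Values without it are therefore given beside Igha, Jchain, Mzb1, Derl3 and Tnfrsf17 and beside several related genes. As markers of the tumour label, Cdh1 was at 10.5 ± 2.37 and 11.5 ± 3.31 CPM and Epcam at 0.65 ± 0.54 and 0.52 ± 0.41 CPM, and Cdx2, an intestinal transcription factor, had no count in any library. Krt7, an epithelial keratin gene, was lower in all 5 CD43-KO tumours than in any of the 4 Vec tumours (0.35 ± 0.10 and 0.12 ± 0.05 CPM, edgeR adjusted p = 0.210). It was scarce, down to 0.0507 CPM in CD43-KO replicate 5, and 3.5% of all names tested separated the groups in that direction. The keratin genes Krt8 (0.09 ± 0.07 and 0.08 ± 0.04 CPM) and Krt18 (0.07 ± 0.02 and 0.10 ± 0.08 CPM) overlapped between the groups. The filter on low counts kept 6 of the 8 genes and left out Ighm and Tnfrsf17. The labels do not say that each tumour came from its own mouse, and they give no batch, so p-values measure only the spread between these tumours, part of which may be technical.

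Igha, the constant chain of IgA, was the most abundant antibody gene in these tumours by counts. Vec replicates 1 to 4 held 6.27, 13.1, 28.3 and 4.64 CPM, whereas CD43-KO replicates 1 to 5 held 51.96, 94.5, 90.7, 24.0 and 34.1 CPM. Thus 4 of 5 CD43-KO tumours lay above every Vec tumour, and CD43-KO replicate 4 lay between Vec replicates 2 and 3. The means were 13.1 ± 10.8 CPM (SD, n = 4) and 59.1 ± 32.2 CPM (SD, n = 5), and the log2 fold change of CD43-KO over Vec was 2.17 ± 0.62 (SE). Without Vec replicate 3 it was 2.87, and without CD43-KO replicate 3 it was 1.96, with a CD43-KO mean of 51.15 ± 31.1 CPM. The gene lies on the minus strand of chromosome 12 from 113254830 to 113260236 (GRCm38). A second name, Igha_1, held between 0 and 87 counts per library, against 251 to 6129 for Igha, so the counts of Igha are uncertain by at least that amount.

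Jchain showed nearly the same order of tumours at lower counts, with only the 2 highest exchanged. Vec replicates 1 to 4 held 3.92, 5.24, 14.04 and 2.25 CPM, whereas CD43-KO replicates 1 to 5 held 20.1, 31.7, 56.8, 6.62 and 14.2 CPM. CD43-KO replicate 5 exceeded the highest Vec tumour only slightly, at 14.15 against 14.04 CPM, and CD43-KO replicate 4 lay inside the Vec range. The means were 6.36 ± 5.26 CPM and 25.9 ± 19.6 CPM (a log2 fold change of 2.02 with SE 0.70). Without CD43-KO replicate 3 the CD43-KO mean was 18.1 ± 10.6 CPM, with a log2 fold change of 1.50, and without Vec replicate 3 the log2 fold change was 2.75. The ratio of Igha to Jchain counts ranged from 1.6 to 2.5 in Vec and from 1.6 to 3.63 in CD43-KO tumours. The gene lies on chromosome 5 from 88519809 to 88527891. Whether more plasma cells or more RNA per plasma cell stands behind a level cannot be told apart in bulk tissue.

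**Figure D1:**
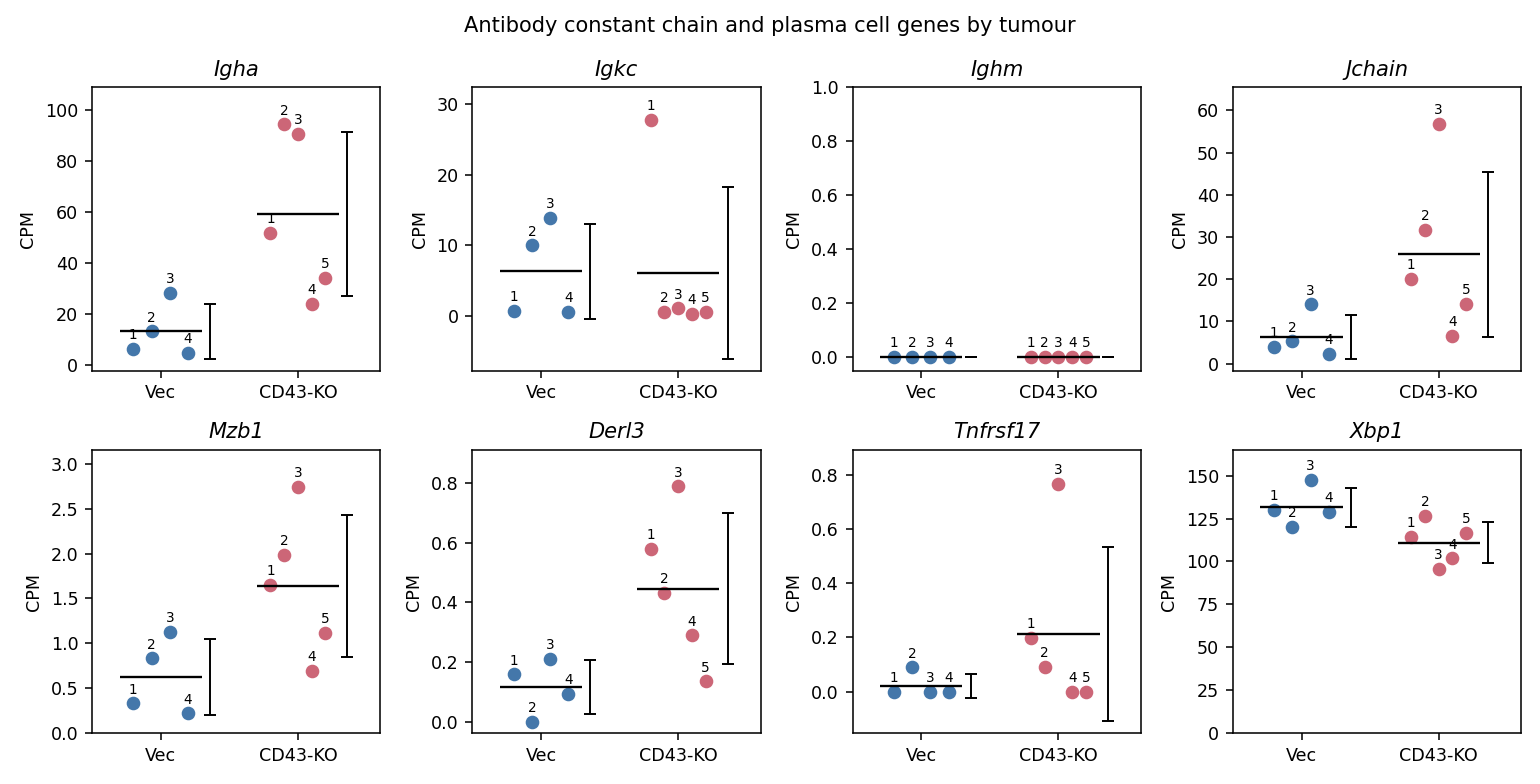
CPM (TMM-scaled) of the 8 genes in each tumour, with replicate numbers beside the points, horizontal lines at the group means and bars of 1 SD. CD43-KO replicates 1, 2 and 3 are highest for Jchain, Mzb1 and Derl3, Igkc is high in CD43-KO replicate 1 and Vec replicates 2 and 3, Ighm is at 0 throughout, and 4 of 5 CD43-KO tumours lie below every Vec tumour for Xbp1.

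Mzb1, a chaperone of the endoplasmic reticulum in B lineage cells that aids antibody assembly, was at 0.33, 0.83, 1.13 and 0.22 CPM in Vec replicates 1 to 4. In CD43-KO replicates 1 to 5 it was at 1.65, 1.99, 2.74, 0.698 and 1.11 CPM. CD43-KO replicates 1, 2 and 3 were above every Vec tumour, and replicates 4 and 5 were inside the Vec range. The means were 0.63 ± 0.43 and 1.64 ± 0.79 CPM, or 1.36 ± 0.57 CPM in CD43-KO tumours without replicate 3. The log2 fold change was 1.37 ± 0.54 (SE). Mzb1 lies on the minus strand of chromosome 18 from 35647267 to 35649367, where GENCODE M21 places a second gene model, SPATA24, on the same strand.

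Tnfrsf17, the BCMA receptor through which plasma cells receive survival signals, was close to the detection limit. It had 6 counts in Vec replicate 2 and 0 in the other 3 Vec libraries, and 13, 6, 33, 0 and 0 counts in CD43-KO replicates 1 to 5. A count of 0 allows up to 0.0416 to 0.0494 CPM in the Vec libraries and 0.0482 to 0.0669 CPM in the CD43-KO libraries (3 counts, counting error only). Most of the 52 CD43-KO counts came from replicate 3, and the CD43-KO mean of 0.21 CPM was 0.0728 CPM without it. The gene lies on chromosome 16 from 11313812 to 11320074.

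Derl3, which takes part in the removal of misfolded proteins from the endoplasmic reticulum, was also scarce. It had 10, 0, 15 and 5 counts in Vec replicates 1 to 4 and 38, 28, 34, 17 and 8 counts in CD43-KO replicates 1 to 5. At 0.12 ± 0.09 and 0.45 ± 0.25 CPM, its log2 fold change was 1.92 ± 0.79 (SE), and 4 of 5 CD43-KO tumours exceeded the highest Vec tumour. CD43-KO replicate 5, at 0.14 CPM, was below Vec replicates 1 and 3. The log2 fold change depended on the method, at 3.05 with limma voom with quality weights, and was 1.61 without CD43-KO replicate 3 (CD43-KO mean 0.36 ± 0.19 CPM). Derl3 lies on chromosome 10 from 75893413 to 75895941.

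The promoters of Derl3 and Jchain are shown because both genes had their highest levels in CD43-KO replicates 1, 2 and 3, and because XBP1 is known to act through stress elements in the promoters of secretory genes. The windows run from 250 bases before to 50 bases after the start site (RefSeq, GRCm38.p6), and 4 of the 8 genes had one in the RefSeq table used. Searched on both strands were the endoplasmic reticulum stress element (CCAAT and CCACG with 9 bases between), the core of the unfolded protein response element (ACGTGG) and the octamer bound by POU factors (ATTTGCAT). The capitals mark matches. Derl3 held 1 stress element on the reverse strand, starting 156 bases before the start site, and 1 match to the core element starting 169 bases before it, with no overlap between them. In all, 0.119% of 32851 promoters held the stress element, 8.31% the core element and 1.74% the octamer. Neither Jchain nor Xbp1 nor Tnfrsf17 held a match in these windows.
Derl3, chr10:75893148-75893447, plus strand: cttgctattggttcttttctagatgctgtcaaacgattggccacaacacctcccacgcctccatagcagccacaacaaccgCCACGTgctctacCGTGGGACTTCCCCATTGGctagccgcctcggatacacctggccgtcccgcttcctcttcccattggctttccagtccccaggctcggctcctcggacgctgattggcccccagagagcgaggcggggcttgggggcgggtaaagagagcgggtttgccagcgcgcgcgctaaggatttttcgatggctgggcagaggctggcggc
Jchain, chr5:88527848-88528147, minus strand: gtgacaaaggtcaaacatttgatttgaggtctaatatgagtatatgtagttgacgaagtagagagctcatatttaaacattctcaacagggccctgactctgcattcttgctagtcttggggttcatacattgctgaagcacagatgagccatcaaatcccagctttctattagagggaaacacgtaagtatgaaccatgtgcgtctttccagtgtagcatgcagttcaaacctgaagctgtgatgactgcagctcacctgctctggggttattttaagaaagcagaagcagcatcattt

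Igkc, the constant chain of kappa light chains, did not follow Igha and Jchain. Vec replicates 1 to 4 held 0.758, 9.98, 13.9 and 0.536 CPM, whereas CD43-KO replicates 1 to 5 held 27.8, 0.555, 1.07, 0.29 and 0.609 CPM. Hence the 9 tumours fell into 3 with 670, 990 and 1817 counts (Vec replicates 2 and 3 and CD43-KO replicate 1) and 6 with 17 to 48 counts. The log2 fold change of -0.06 ± 1.47 (SE) rested on CD43-KO replicate 1, and without it the value was -3.33.

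Counts of kappa variable segments, which the same transcripts carry, gave another order. Summed over 162 Igkv names, Vec replicates 1 to 4 held 99, 257, 443 and 69 counts, whereas CD43-KO replicates 1 to 5 held 1137, 1563, 729, 197 and 540. The highest Igkv count was thus in CD43-KO replicate 2, which had only 36 Igkc counts. For every 100 Igkv counts there were 48.5, 261, 223 and 42.0 Igkc counts in Vec replicates 1 to 4. In CD43-KO replicates 1 to 5 there were 160, 2.3, 6.31, 8.63 and 6.67. Igkc lies on chromosome 6 from 70726435 to 70726966, inside a longer noncoding gene on the same strand, Gm30211, which held 2 counts in all libraries together. How reads of rearranged kappa transcripts were assigned is not given in the sources used here, and its part in the low Igkc counts was not tested.

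Lambda light chains were counted under Iglc1, Iglc2 and Iglc3, with 6 to 28 counts per Vec library and 62, 266, 118, 30 and 52 counts in CD43-KO replicates 1 to 5. Iglc1 was at 0.15 ± 0.13 and 1.37 ± 1.45 CPM (a log2 fold change of 3.20 with SE 1.01 and an edgeR adjusted p = 0.234). DESeq2 called it (adjusted p = 0.0184), and 4 of 5 CD43-KO tumours exceeded the highest Vec tumour. Iglc1 also has a copy name, so its counts are uncertain. Of all light chain constant counts, Igkc made up 69.6% to 97.2% in Vec tumours and 96.7% in CD43-KO replicate 1, but only 11.9% to 40.9% in the other 4 CD43-KO tumours. The variable segments did not show this fall, and Igkv counts exceeded lambda (Iglv) counts in every tumour. In CD43-KO replicates 2 to 5, Igkv held 1563, 729, 197 and 540 counts and Iglv 243, 103, 17 and 40. The constant shares are therefore not read as a change from kappa to lambda.

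Ighm, the constant chain of IgM, had a count of 0 in all 9 libraries, which allows at most 0.0669 CPM in the shallowest of them. The names Ighd, Ighg1, Ighg3 and Ighe were likewise at 0 throughout. The copy name Ighm_1 held 0, 8, 3 and 1 counts in Vec replicates 1 to 4 and 6, 4, 7, 5 and 8 counts in CD43-KO replicates 1 to 5, and Ighg1_2 held 33 and Ighg3_1 26 counts over all libraries. A 0 under the plain name is therefore not a measured absence of the transcript. Ighm spans 113418558 to 113422730 on the minus strand of chromosome 12.

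Of the plain heavy chain names, 3 held counts, Igha, Ighg2b and Ighg2c, and the shares below are among these 3, without copy names or classes whose plain name was at 0. Igha took 70.1% (95% Clopper-Pearson interval 66.2 to 73.9), 75.1%, 83.8% and 90.0% of 566, 1173, 2399 and 279 counts in Vec replicates 1 to 4. In CD43-KO replicates 1 to 5 it took 76.8%, 88.9%, 93.2% (92.4 to 94.0), 83.1% and 90.9% of 4428, 6895, 4189, 1698 and 2221 counts. The shares overlapped between the groups (79.8 ± 8.87% and 86.6 ± 6.63%), and the intervals cover counting error only. Ighg2b made up 7.75% to 10.7% in Vec and 3.42% to 5.94% in CD43-KO tumours, without overlap, a feature noticed after the values were seen. The level of Ighg2b itself had the higher mean in CD43-KO tumours, at 1.46 ± 0.96 and 3.13 ± 1.73 CPM (a log2 fold change of 1.09 with SE 0.56 and an edgeR adjusted p = 0.374). Ighg2c, the IgG2 gene of the C57BL/6 strain, was at 1.79 ± 1.27 and 5.35 ± 3.98 CPM (edgeR adjusted p = 0.432) and had no count in Vec replicate 4. Heavy chain variable segments summed to 0.85 to 2.49 CPM in Vec and 2.79 to 8.11 CPM in CD43-KO tumours, so that the lowest CD43-KO tumour lay above the highest Vec tumour. The light chain sums overlapped, with Igkv at 1.28 to 6.24 and 3.36 to 24.1 CPM and Iglv at 0.158 to 0.465 and 0.29 to 3.75 CPM. Among single names tested, 2.08% separated the groups with CD43-KO higher. That share was not worked out for sums, so the lack of overlap is only a description.

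**Figure D2:**
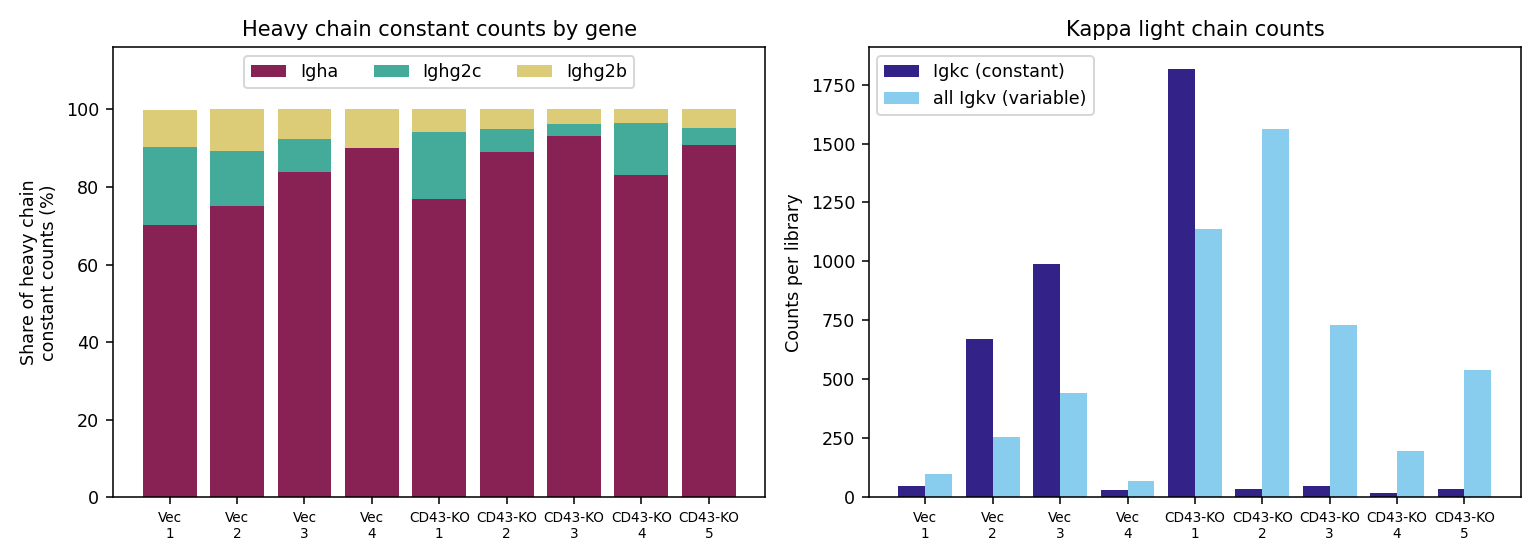
Left, share (%) of heavy chain constant counts under Igha, Ighg2c and Ighg2b in each tumour; right, counts per library of Igkc and of all Igkv segments. Igha holds at least 70.1% everywhere, and Igkc falls short of Igkv in 6 tumours, down to 36 against 1563 counts in CD43-KO replicate 2.

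Xbp1 had its lower mean in CD43-KO tumours. It encodes a transcription factor of the unfolded protein response that many secretory cell types make. Vec replicates 1 to 4 held 130.0, 120.3, 147.4 and 128.9 CPM, whereas CD43-KO replicates 1 to 5 held 114.5, 126.4, 95.9, 101.9 and 116.5 CPM. Thus 4 of 5 CD43-KO tumours were below every Vec tumour, and CD43-KO replicate 2 was inside the Vec range. The means were 131.6 ± 11.4 and 111.0 ± 12.2 CPM, a log2 fold change of -0.25 ± 0.10 (SE). CD43-KO replicate 3 was lowest for Xbp1 and highest for Jchain. The counts are per gene and hold no information on the splicing of Xbp1 that yields its active form. The gene lies on chromosome 11 from 5520659 to 5525893.

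Per kilobase of exon (GENCODE M21), Xbp1 was the highest of the 8 genes in both groups, at 40.5 ± 3.50 CPM per kb in Vec and 34.2 ± 3.75 CPM per kb in CD43-KO tumours. In CD43-KO tumours the mean of Igha followed at 22.1 ± 12.1 CPM per kb, then Igkc at 11.4 ± 22.8 and Jchain at 10.3 ± 7.77. Neighbouring means did not differ beyond their spread. The Igkc mean was made by CD43-KO replicate 1, whose Igkc level was 27.8 CPM. Replicates 2 to 5 had little Igkc (0.555, 1.07, 0.29 and 0.609 CPM), and each had more Jchain than Igkc per kb. In Vec tumours the order of the means was Igkc (11.8 ± 12.7 CPM per kb), Igha (4.90 ± 4.05) and Jchain (2.53 ± 2.09). Igkc varied widely there, from 0.536 to 13.9 CPM. Within each of the tumours Igha exceeded Jchain per kb. The ratio of their counts was 1.6 to 2.5 in Vec and 1.6 to 3.63 in CD43-KO tumours, at exon lengths of 2668 and 2517 bases. Mzb1 was at 0.52 ± 0.35 and 1.35 ± 0.65 CPM per kb. Derl3 (0.06 ± 0.05 and 0.22 ± 0.13) and Tnfrsf17 (0.03 ± 0.05 and 0.26 ± 0.39) were lowest of those with counts.

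Against all genes tested, the 6 genes that passed the filter stood as follows, with nothing to be read from the counts because the same contrast chose them. The edgeR quasi-likelihood test called 0 of them, beside 0% of 18243 names with CD43-KO higher and 0% with CD43-KO lower (adjusted p threshold 0.05). It gave 1414 higher and 1392 lower names at an unadjusted p under 0.05. None of the 6 separated the groups without overlap, which 2.08% of all names did with CD43-KO higher and 3.5% with CD43-KO lower. DESeq2 called 1 of the 6, Igha, beside 1.35% of names higher and 2% lower. The same gene was the only one of the 6 that limma voom with quality weights called, beside 0.904% of names higher and 1.82% lower. The log2 fold change was above 0 in 4 of the 6 and in 54% of all names, whose median was 0.03.

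The levels of Igha, Jchain and Mzb1 moved together from tumour to tumour. The genes were chosen with their group difference known, and that difference enters r over the 9 tumours and its p-values. Pearson's r of log2 CPM over the 9 tumours was 0.967 for Igha and Jchain (Spearman's rho 0.983), 0.971 for Igha and Mzb1 (rho 0.95) and 0.967 for Jchain and Mzb1 (rho 0.967). In a two-sided exact permutation test these 3 of 21 pairs passed, with Benjamini-Hochberg adjusted p of 0.000231, 0.000386 and 0.000231 for r (unadjusted 1.93e-05, 5.51e-05 and 2.2e-05) and of 0.00104, 0.00247 and 0.00174 for rho. After the mean of each group was removed, r was 0.947, 0.966 and 0.938, and these values were not tested. Without the 2 tumours farthest from the median of the first gene, r was 0.953, 0.915 and 0.937, and without CD43-KO replicate 3 it was 0.975, 0.965 and 0.961.

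No other pair passed over the 9 tumours. Derl3 had r of 0.689, 0.719 and 0.577 with Igha, Jchain and Mzb1, with exact permutation adjusted p of 0.111, 0.0984 and 0.238. Tnfrsf17 had r of 0.646, 0.716 and 0.732 with them (exact permutation adjusted p of 0.162, 0.0984 and 0.0984), at counts too sparse for a weak relation to be read. Igkc had r of 0.129, 0.156 and 0.29, and Xbp1 had r of -0.412, -0.38 and -0.393, none of which passed (exact permutation adjusted p from 0.441 to 0.766). After the mean of each group was taken out, the signs for Xbp1 turned (0.321, 0.211 and 0.154), while r was 0.319, 0.455 and 0.201 for Derl3, 0.545, 0.637 and 0.658 for Tnfrsf17 and 0.551, 0.475 and 0.644 for Igkc. Without Vec replicate 2, in which Derl3 had no count, 8 pairs passed.

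**Figure D3:**
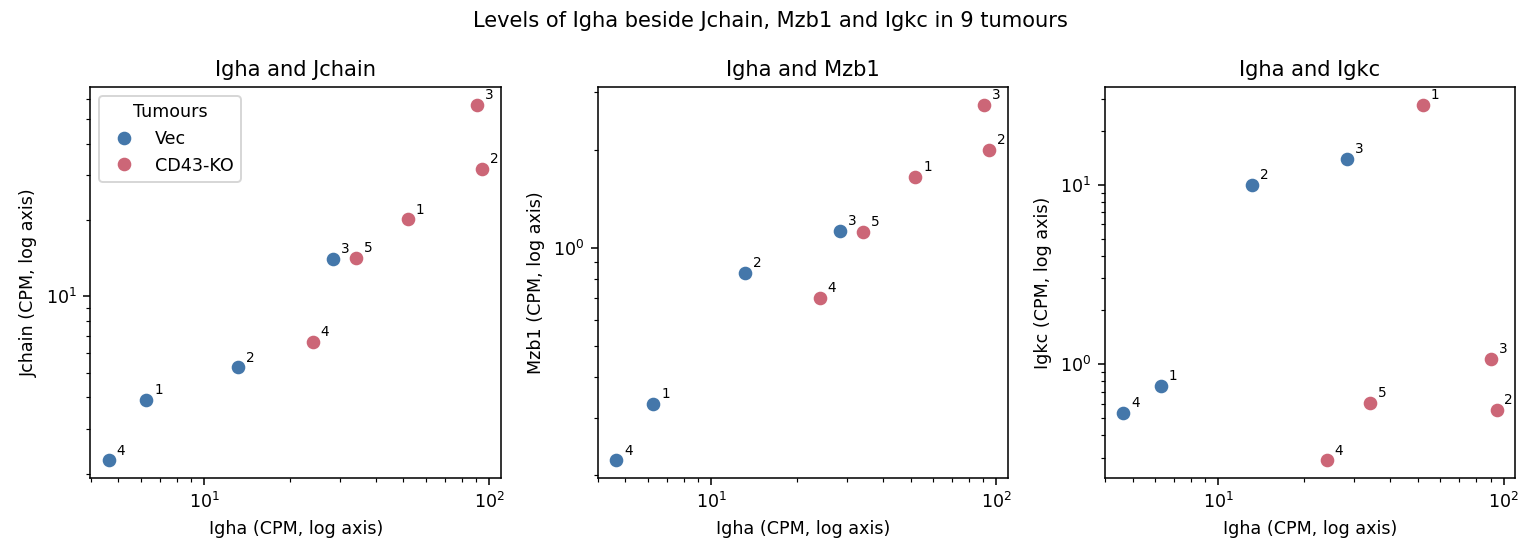
Igha (x, CPM, log axis) against Jchain, Mzb1 and Igkc (y, CPM, log axis) in the 9 tumours, numbered by replicate within each group. Jchain and Mzb1 rise with Igha (r = 0.967 and 0.971), while Igkc splits into 3 tumours near or above 10 CPM and 6 near or below 1 CPM.

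The tumours with the highest antibody transcripts also had the highest leukocyte transcripts. Summed over 6 pan-leukocyte genes (Ptprc, Cd53, Coro1a, Laptm5, Cytip and Rac2), levels were 306.7, 360.8, 394.5 and 372.9 CPM in Vec replicates 1 to 4 and 519.5, 610.8, 869.2, 293.7 and 375.2 CPM in CD43-KO replicates 1 to 5. The lowest of all 9 for leukocyte genes was CD43-KO replicate 4, and its Igha exceeded that of 3 Vec tumours. The part of leukocyte content in the Igha level was not tested. For every 100 CPM of these 6 genes, Igha was at 2.04, 3.64, 7.18 and 1.24 CPM in Vec and at 8.18 to 15.5 CPM in CD43-KO tumours, without overlap. The means of this ratio were 3.53 ± 2.63 and 10.6 ± 2.84, and the mean of its log2 values was higher by 1.86 in CD43-KO tumours, with or without CD43-KO replicate 3. The ratio was formed after the values were seen and was not tested. How many of all names separate the groups under the same ratio was not worked out, so the lack of overlap is only a description.

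For Jchain the ratio was 1.72 ± 1.28 in Vec and 4.32 ± 1.61 in CD43-KO tumours (a difference of 1.52 between the mean log2 ratios), with CD43-KO replicate 4 inside the Vec range. For Mzb1 it was 0.171 ± 0.105 and 0.299 ± 0.0356 (a difference of 1.05 between the mean log2 ratios), and CD43-KO replicate 4 again lay inside the Vec range. Relative to the sum of 8 T cell genes the mean log2 ratios differed by 1.62 for Igha, 1.29 for Jchain and 0.81 for Mzb1. For Igha the highest Vec tumour, at 60.1, then lay just below the lowest CD43-KO tumour, at 61.8 CPM for every 100 CPM of T cell genes.

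**Figure D4:**
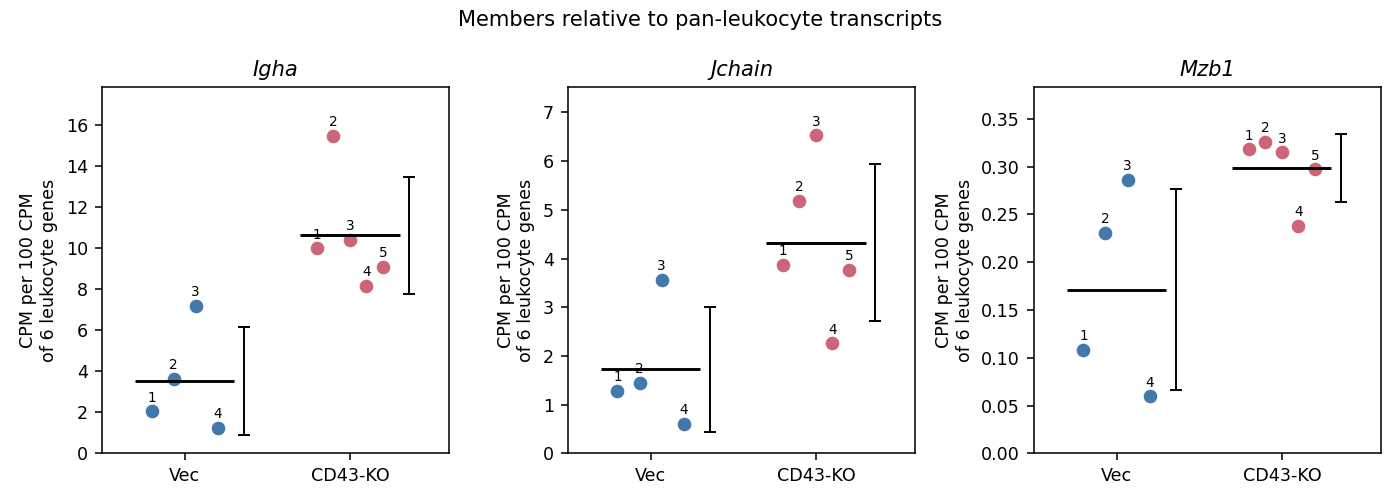
CPM of Igha, Jchain and Mzb1 for every 100 CPM of 6 pan-leukocyte genes in each tumour, with replicate numbers, lines at group means and bars of 1 SD. For Igha all CD43-KO tumours (8.18 to 15.5) lie above all Vec tumours (1.24 to 7.18), whereas for Jchain and Mzb1 CD43-KO replicate 4 lies among the Vec tumours. The ratio was chosen with the values known.

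Markers of other cells that can carry these transcripts were present. Of 13 B cell names 8 were tested and 6 had a log2 fold change above 0 (median 0.76 against 0.03 over all names), and none had 0 counts in all libraries. Their summed level was 33.0 to 41.7 CPM in Vec and 35.5 to 47.6 CPM in CD43-KO tumours, most of it from Ebf1, which stromal cells also make (34.0 ± 4.25 and 33.8 ± 2.09 CPM). Cd22, a B cell inhibitory receptor, was at 0.93 ± 0.41 and 3.33 ± 2.47 CPM (a log2 fold change of 1.84 with SE 0.55 and an edgeR adjusted p = 0.214) and passed with DESeq2 (adjusted p = 0.0212). Its CD43-KO mean was 2.33 ± 1.18 CPM without CD43-KO replicate 3. Cd79b, a signalling chain of the B cell receptor, was at 0.29 ± 0.22 and 1.07 ± 0.88 CPM, or 0.73 ± 0.51 CPM in CD43-KO tumours without replicate 3. Besides Ebf1, lower CD43-KO means were found for Fcer2a (0.89 ± 0.13 and 0.70 ± 0.10 CPM, log2 fold change -0.35) and for the scarce Cr2 and Vpreb3. The other B cell names had higher CD43-KO means. Fcer2a, Cr2 and Vpreb3 were named after their values were seen.

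Plasmacytoid dendritic cells also make Mzb1. All 9 of their marker names were tested, 7 had a log2 fold change above 0 (median 0.29), and the summed level was 351.7 to 441.7 CPM in Vec and 342.1 to 472.2 CPM in CD43-KO tumours, most of it Bst2. Siglech, their most specific marker in the list, was at 1.07 ± 0.75 and 2.51 ± 1.15 CPM. Its log2 fold change was 1.23 with SE 0.48 (edgeR adjusted p = 0.283). Ccr9 had 0.49 ± 0.30 and 1.42 ± 1.11 CPM. Dropping CD43-KO replicate 3 lowered the CD43-KO mean of Ccr9 to 0.96 ± 0.50 CPM. The abundant names Bst2 and Tcf4 went the other way. Bst2 had 273.7 ± 47.6 and 253.0 ± 43.4 CPM (log2 fold change -0.11). Tcf4 had 59.4 ± 10.1 and 57.3 ± 8.81 CPM (log2 fold change -0.05). Lymphoid tissue genes summed to 4.67 to 5.79 CPM in Vec and 4.43 to 16.3 CPM in CD43-KO tumours, highest in CD43-KO replicates 2 and 3. Among them, Ccl21a, a chemokine of lymph node stroma, was at 2.88 ± 0.54 and 5.97 ± 3.46 CPM (edgeR adjusted p = 0.256). Cxcl13 was at 1.03 ± 0.26 and 1.79 ± 2.50 CPM. It reached 6.11 CPM in CD43-KO replicate 3, and the CD43-KO mean was 0.71 ± 0.74 CPM without that tumour. Of the scarce names left out by the filter, Ccl19 and Madcam1 had lower and Glycam1 and Chst4 higher CD43-KO means. The part of any of these cells, or of adjacent lymphoid tissue, in the levels of Igha, Jchain and Mzb1 was not tested.

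The transcription factors that direct plasma cells did not pass the edgeR test. In the list of regulators and class switching genes 9 of 11 names were tested, edgeR called 0 in either direction, and 7 had a log2 fold change above 0 (median 0.49). Pou2af1, a coactivator of octamer-dependent antibody gene transcription, was at 0.03, 0.09, 0.03 and 0.09 CPM in Vec and 0.596, 0.601, 1.11, 0.375 and 0.169 CPM in CD43-KO replicates 1 to 5, above every Vec tumour in all 5. Its log2 fold change was 3.21 ± 0.65 (SE, edgeR adjusted p = 0.141), while DESeq2 called it (adjusted p = 0.00134). Irf4 was at 1.39 ± 0.51 and 3.34 ± 2.05 CPM (edgeR adjusted p = 0.280). The elongation factor gene Ell2, which favours the secreted form of heavy chains, was at 20.1 ± 3.80 and 28.2 ± 6.18 CPM (edgeR adjusted p = 0.265), and Creb3l2 at 46.9 ± 9.01 and 38.8 ± 7.66 CPM.

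In the list of surface and secretory markers all 14 names were tested, edgeR and DESeq2 called 0, and 11 had a log2 fold change above 0 (median 0.36). Slamf7, a receptor of plasma cells and of natural killer and myeloid cells, was at 6.79 ± 2.03 and 14.4 ± 8.88 CPM (a log2 fold change of 1.09 with SE 0.44 and an edgeR adjusted p = 0.293). Its CD43-KO mean was 11.1 ± 5.69 CPM without CD43-KO replicate 3. Of the general secretory pathway, Txndc5 had 241.9 ± 23.4 and 212.4 ± 19.8 CPM, and Ssr4 had 158.6 ± 22.9 and 125.3 ± 30.3 CPM. Sdc1, which encodes the plasma cell marker CD138 and was named after its values were seen, was at 112.0 ± 9.56 and 120.0 ± 5.81 CPM. Epithelial and carcinoma cells also make it.

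Most genes of survival signals and antibody receptors had higher means in CD43-KO tumours, some only slightly, and none passed the edgeR test. Of 9 niche genes tested 8 had a log2 fold change above 0 (median 0.16) and edgeR and DESeq2 called 0. Tnfsf13 (8.91 ± 0.76 and 9.43 ± 4.25 CPM) and Tnfsf13b (3.07 ± 0.45 and 3.13 ± 1.07 CPM), which encode survival ligands, hardly differed in mean. Both were named after their values were seen. Cxcl12, the chemokine that retains plasma cells in bone marrow, was at 23.2 ± 5.38 and 51.6 ± 33.1 CPM (edgeR adjusted p = 0.306). CD43-KO replicate 3 reached 93.8 CPM, and dropping it lowered the CD43-KO mean to 41.1 ± 26.8 CPM. Replicate 4 (14.9 CPM) lay below every Vec tumour, and replicate 5 (22.9 CPM) lay within the Vec range. The Cxcl12 receptor gene Cxcr4 was at 17.7 ± 2.30 and 21.7 ± 9.39 CPM. Of 7 antibody transport and Fc receptor genes tested 6 had a log2 fold change above 0 (median 0.50), and again both tools called 0. The activating receptor gene Fcgr4 was at 21.5 ± 2.37 and 56.2 ± 45.2 CPM (edgeR adjusted p = 0.265), with CD43-KO replicate 3 at 132.1 CPM and the CD43-KO mean at 37.2 ± 17.8 CPM without it. The inhibitory Fcgr2b was at 102.1 ± 15.1 and 175.9 ± 91.4 CPM, with CD43-KO replicate 3 at 326.5 CPM and the CD43-KO mean at 138.3 ± 41.0 CPM without it. Pigr, the epithelial receptor that carries polymeric IgA, had no count in any library.

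The unfolded protein response list did not follow the antibody genes. All 25 names were tested, 9 had a log2 fold change above 0 (median -0.04), and edgeR called 0. The chaperone gene Hspa5 had 960.6 ± 117 and 934.1 ± 129 CPM, and Hsp90b1 had 893.7 ± 147 and 883.6 ± 159 CPM. Ddit3, a stress transcription factor also known as CHOP, spanned 61.1 to 64.7 CPM in Vec and 41.8 to 52.3 CPM in CD43-KO tumours, without overlap (a log2 fold change of -0.44 with SE 0.09 and an edgeR adjusted p = 0.147). DESeq2 called it (adjusted p = 0.00299). Ern1, whose product splices Xbp1 RNA, was at 12.5 ± 3.30 and 16.9 ± 4.96 CPM (edgeR adjusted p = 0.432). Among the 4 other antibody constant chains tested, all had a log2 fold change above 0 (median 1.52), edgeR called 0 and DESeq2 called 1, Iglc1.

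**Figure D5:**
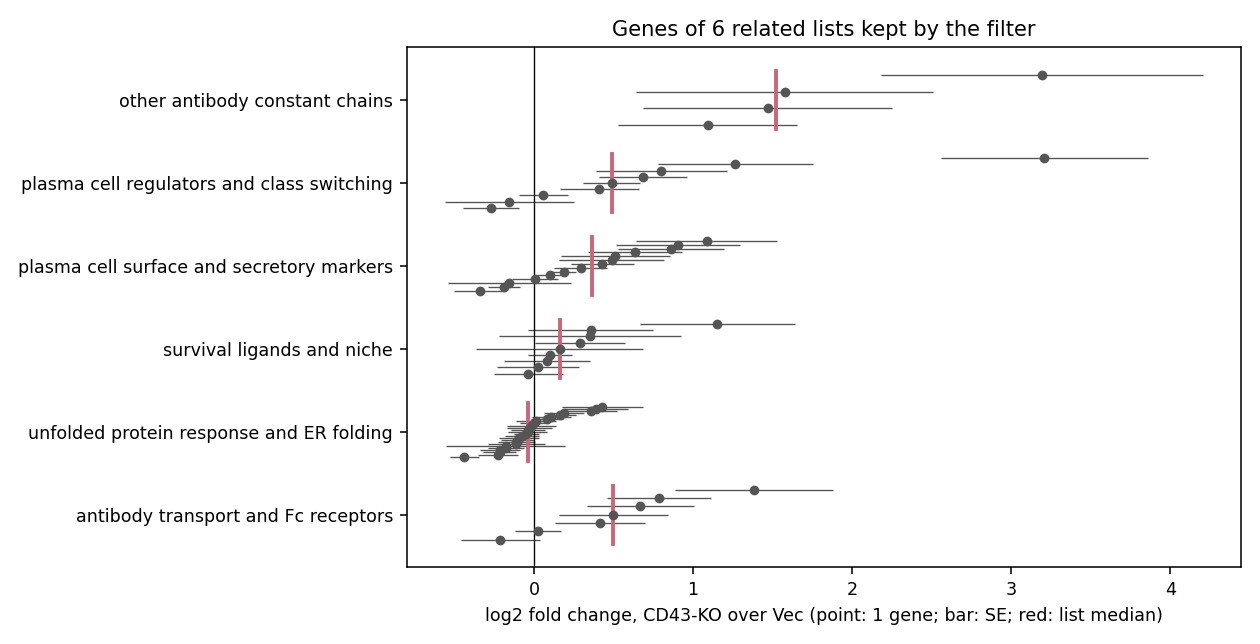
Log2 fold change of CD43-KO over Vec (x) with its SE for each tested gene of 6 related lists, and the median of each list as a red line. The medians lie between -0.04 for the unfolded protein response and 1.52 for the other antibody constant chains, and no gene passed the edgeR test.

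Names with a pattern over the 9 tumours most like that of a member were ranked by Pearson's r of log2 CPM among all names tested, as a description. For Jchain they were Rrbp1, which encodes a ribosome-binding protein of the endoplasmic reticulum (r = 0.986), Cacna1d (0.984) and Nceh1 (0.984). Igha was followed by Ss18 (0.976), Arhgef3 (0.971) and Slfn8 (0.97), and Mzb1 by Samd3 (0.976), Ccdc88c (0.974) and Slc25a53 (0.966). Igkc was followed by Arhgef26 (0.878), the early response gene Nr4a2 (0.874) and Fam120aos (0.846). The names most like Derl3 were Ptgs2os (0.964), Spef2 (0.95) and Nos2, the inducible nitric oxide synthase (0.938). Those most like Xbp1 included the histone genes H2bc15 (0.938) and H3c11 (0.924) and then Rbm4b (0.911).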

How the data were processed

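The authors deposited whole-number counts per gene name, 1 table per tumour, per the file headers and values; they are not scaled to depth. Per the submitters' processing notes, HISAT2 2.1.0, StringTie 1.3.5, DESeq2 and the build GRCm38 were used, with no role or order; the sources used here do not say how rearranged antibody transcripts were counted, with which annotation, or whether strand was used. Without a stated strand setting, genes on opposite strands cannot be told apart. A number after a gene name marks a copy name, and such genes are called uncertain.

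The deposited counts of 4 Vec and 5 CD43-KO tumours went into edgeR 4.0.16 under R 4.3.3: filterByExpr (minimum count 10, minimum total 15), TMM factors, and a robust quasi-likelihood F test on group alone, with Benjamini-Hochberg adjustment over 18243 names and a threshold of 0.05. Standard errors are the log2 fold change over the square root of F. DESeq2 1.42.0 and limma 3.58.1 (voom) were alternatives, and DESeq2 gave no adjusted p for 1510 names. On simulated data for this comparison with 18243 names, edgeR recovered 78% of genes changed 2-fold and 97% of those changed 4-fold. The changed genes were drawn only from names with higher counts. These shares therefore do not apply to sparse genes such as Derl3, Mzb1, Pou2af1 and Iglc1. They were taken over all changed genes and were not worked out for genes as variable between tumours as Igha and Jchain. Co-variation used log2 CPM (prior count 2) and all orders of 9 tumours.

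The genes and lists were chosen with earlier results of these data known. Named were all 8 genes, in each list the 2 most abundant and the 2 with the largest log2 fold change (of which some are given here only in counts), and the 3 most similar names of each gene, skipping predicted, clone-named, pseudogene and copy names. Dates stand in place of 26 names in the tables; they were kept in the fit and not named.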

Additional observations from a re-analysis of the deposited data

Results flagged for a closer look

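Of 24 groups of values checked for a single tumour far from the rest, 4 held one, with a limit set for about 1 in 20 by chance. That rate is no yardstick here, because both Igkc flags share 1 count and Tnfrsf17 was mostly at 0 in Vec tumours. Igkc in CD43-KO replicate 1 was at 27.8 CPM, and the nearest CD43-KO tumour at 1.07 CPM. The same tumour had 160 Igkc counts for every 100 Igkv counts, against 8.63 in the nearest CD43-KO tumour, although 2 Vec tumours reached 223 and 261. Tnfrsf17 was at 0.766 CPM in CD43-KO replicate 3 (whose muscle and fat genes stood apart) and at 0.199 CPM in the nearest one. It was at 0.0894 CPM in Vec replicate 2, from 6 counts, with 0 in the other Vec tumours.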

How the results depend on the processing

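No paired analysis was possible because the labels give the tumours no shared replicate numbers. The counts of 0 names higher and 0 lower with edgeR became 247 and 365 with DESeq2 and 165 and 332 with limma voom; without a low-count filter 1 name was lower. Leaving out 1 tumour gave 0 to 8 higher and 0 to 21 lower names, the most without Vec replicate 3. In the related lists DESeq2 called 2 genes higher (Pou2af1 and Iglc1) and 1 lower (Ddit3), and voom 1 higher (Pou2af1) and 1 lower (Ddit3). The median r over the 21 pairs was 0.296, became 0.45 with group means removed, and ran from 0.26 to 0.48 when 1 tumour was left out; the number of passing pairs ran from 3 to 8. The log2 fold changes kept their sign under every alternative run for Igha (1.88 to 2.87), Jchain (1.50 to 2.75), Mzb1 (1.08 to 1.80), Derl3 (1.50 to 3.05, not tested with the stricter filter) and Xbp1 (-0.295 to -0.156), and that of Igkc ran from -3.33 to 0.687. The causes of these shifts were not tested. Adding copy names moved the mean Igha share only to 79.4% in Vec and 85.9% in CD43-KO tumours. With 0 to 38 counts per library, Derl3 and Tnfrsf17 were limited by depth.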
